A study of Mus musculus with 12 samples.

Results

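The NCoR corepressor is a nuclear complex that silences genes. The 5 genes described here are Tbl1x, Tbl1xr1, Ncor1, Hdac3 and Gps2, taken by symbol from the array's mouse gene annotation, and all 5 were among the 21655 genes tested. Tbl1x was chosen by its measured change in oocytes without Ring1 and Rnf2, where it had been seen among the largest rises. Every comparison of it that holds those oocytes is thus a description, and no test of it there counts as support. Tests of Tbl1x in the single mutants against control reuse the control arrays behind that rise, so they are not free of the choice. The other genes were chosen as partners of Tbl1x in the complex. The samples were germinal vesicle oocytes, the fully grown cells held in prophase of the first meiosis, of 4 genotypes. The double mutant was Ring1-/-Rnf2F/FZp3-cre, the Ring1 mutant Ring1-/-Rnf2F/F, the Rnf2 mutant Ring1+/+Rnf2F/FZp3-cre, and the control Ring1+/+Rnf2F/F. Floxed Rnf2 alleles were thus carried by every group, the control included, and the Zp3 promoter drives Cre in growing oocytes, so that Rnf2 is lost during oocyte growth. Females were 5 to 10 weeks old, of mixed 129/Sv and C57BL/6J background, and primed with 5 U of PMSG 46 h before collection into medium with 2.5 µM milrinone. Each genotype had 3 samples, each of 50 oocytes pooled from several females, and each was hybridised to 1 array after whole-transcriptome amplification.

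In the complex, the large scaffold protein encoded by Ncor1 binds unliganded nuclear receptors and other DNA-bound repressors. Hdac3, which the scaffold activates, is the histone deacetylase of the complex, and Gps2 encodes a small subunit that holds scaffold and TBL proteins together. Tbl1x and Tbl1xr1 encode close relatives with WD40 repeats that bind histone tails and serve in the exchange of corepressors for coactivators. Ring1 and Rnf2 encode the E3 ligases of Polycomb repressive complex 1, which represses genes by a different route, through ubiquitination of histone H2A.

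The promoter windows of both TBL paralogs are shown because they carry the contrast described here. Tbl1x was dim in the control and rose far in the double mutant. Tbl1xr1 was bright throughout and moved less, by 0.15 or 0.83 log2 depending on the probe set. Polycomb complexes are known to settle on CpG-rich promoters, but whether CpG content bears on these changes was not tested. Each window runs from 250 bases before to 50 after a RefSeq start site (GRCm38.p6, plus strand), with every CG dinucleotide in capitals. The Tbl1x window lies at chrX:77510977-77511276 and the Tbl1xr1 window at chr3:22076402-22076701.
Tbl1x: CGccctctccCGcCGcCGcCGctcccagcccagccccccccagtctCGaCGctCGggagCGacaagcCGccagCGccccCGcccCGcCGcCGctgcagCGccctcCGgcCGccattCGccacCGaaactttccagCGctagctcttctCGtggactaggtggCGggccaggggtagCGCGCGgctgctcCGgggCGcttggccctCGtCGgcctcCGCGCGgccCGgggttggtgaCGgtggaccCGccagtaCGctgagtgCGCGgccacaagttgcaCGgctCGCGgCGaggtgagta
Tbl1xr1: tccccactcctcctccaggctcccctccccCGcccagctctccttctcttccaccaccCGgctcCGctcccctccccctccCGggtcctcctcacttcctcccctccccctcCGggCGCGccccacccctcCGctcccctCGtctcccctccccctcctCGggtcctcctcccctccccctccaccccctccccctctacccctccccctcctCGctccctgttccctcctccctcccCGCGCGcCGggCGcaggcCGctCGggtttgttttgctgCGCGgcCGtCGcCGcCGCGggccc
The Tbl1x window held 43 CG dinucleotides at 75.3% G+C, and 2.6% of the 32851 RefSeq promoter windows held as many. The Tbl1xr1 window held 25 at 76.3% G+C, a count reached by 18.4% of windows. The median window held 7. Gps2, on chromosome 11, had 24, and Ncor1, also on chromosome 11, had windows with 36 and 2. Promoter windows were read for 4 of the 5 genes, Tbl1x, Tbl1xr1, Gps2 and Ncor1. The promoter of Hdac3 was left out and was not examined. The E-box CACGTG, which reads the same on both strands, occurred in none of the windows of these 4 genes and in 7.2% of all windows.

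The arrays carried the genotypes as labelled as far as Rnf2 could show. Rnf2 averaged 5.87 ± 0.17 log2 in the double mutant, 5.86 ± 0.23 in the Rnf2 mutant, 8.46 ± 0.06 in the Ring1 mutant and 8.33 ± 0.11 in the control (SD, n = 3 each). Ring1 read 3.79 ± 0.25 log2 in the double mutant and 3.84 ± 0.03 in the control (SD, n = 3), near the 95th percentile of olfactory receptor genes (3.82 log2), so it gave no check. That level, set by 1041 genes of nasal odour receptors, is called the floor in what follows. All 10 oocyte markers stood above the floor. Their mean level was 11.131 to 11.172 log2 in the double mutant, below every array of the other genotypes. It was 11.236 to 11.249 in the Ring1 mutant, 11.24 to 11.257 in the Rnf2 mutant and 11.218 to 11.265 in the control. In the double mutant against control 1 of these 10 was higher (Nlrp5, by 0.22 log2) and 2 were lower (Kit at -0.51 and Oosp1 at -0.19). Median centring gave 0 higher and 5 lower, where it called 2251 of all 21655 genes higher and 7435 lower. The 15 granulosa and cumulus markers, 9 of them above the floor, averaged 4.24 to 4.79 log2 in the double mutant, 4.39 to 4.76 in the Ring1 mutant, 4.87 to 5.24 in the Rnf2 mutant and 4.54 to 5.02 in the control. In the double mutant 1 of them was higher and 1 lower than in control, and 2 were higher and 8 lower than in the Rnf2 mutant. Against control, 14.4% of all genes were called higher and 17.5% lower, the background for each marker list. Against the Rnf2 mutant 30.3% of all genes were called, with 13.9% of all as higher. Against control, 1 of 7 blood markers was higher (C1qb, by 1.05 log2), and of 9 stromal markers 1 was higher and 2 lower. Against the Rnf2 mutant, 1 blood marker was higher and 0 lower, and 0 stromal markers were higher and 3 lower. Only 1 of the 7 blood markers and 4 of the 9 stromal markers had a mean above the floor, so the others say little. The part of other cells in the results was not tested. In pooled oocytes, fewer cells with a transcript and less transcript per cell cannot be told apart.

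Tbl1x was dim in 3 genotypes and bright in the fourth. The double-mutant arrays read 8.25, 8.20 and 8.03 log2, the Ring1 mutants 3.65, 3.45 and 3.52, the Rnf2 mutants 3.77, 4.14 and 4.13, and the controls 3.95, 3.52 and 3.38. Every double-mutant array lay far above all 9 others. The controls overlapped both single mutants, while the Rnf2 mutants lay above the Ring1 mutants by a small margin. The order of the means was double mutant (8.16 ± 0.12), Rnf2 mutant (4.01 ± 0.21), control (3.62 ± 0.29) and Ring1 mutant (3.54 ± 0.10; SD, n = 3 each). The change from control was 4.55 ± 0.14 log2 (SE) in the double mutant, a 23.3-fold difference in array signal. Among all genes this was the third largest rise, between Ddah1 at 4.64 and Plod2 at 4.54. In the double mutant the mean exceeded that of 87% of all genes and of 99.8% of olfactory receptor genes, and in the control that of 38% and 93.4%. The control mean lay below the floor, and the fold is thus set against a level near background.

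In the single mutants Tbl1x did not pass the test, which uses the control arrays that entered its choice. Against control it differed by 0.40 ± 0.14 log2 in the Rnf2 mutant (95% interval 0.09 to 0.70, limma adjusted p = 0.59), while the Ring1 mutant differed by -0.08 ± 0.14 (-0.38 to 0.23, limma adjusted p = 0.912). Loss of Rnf2 came with a Tbl1x difference of 4.62 log2 where Ring1 was also absent and of 0.40 where it was intact, so the 2 differences were 4.22 ± 0.20 apart (SE, a description). Against the Rnf2 mutant the double mutant stood 4.15 log2 higher.

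**Figure D1:**
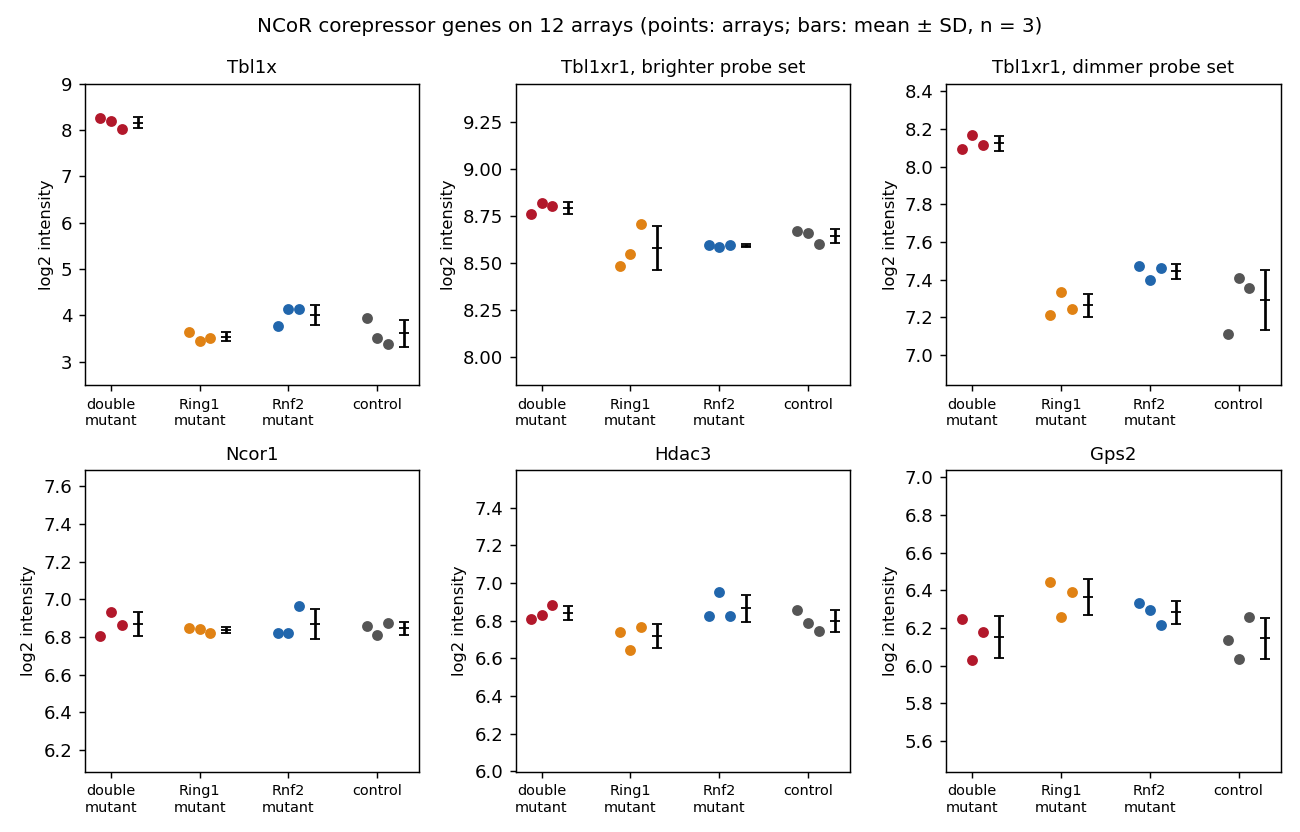
Log2 array intensity (y axis) of the corepressor genes in the 4 genotypes (x axis), with each point an array and the bar beside it the mean ± SD of 3 arrays; all panels but that of Tbl1x span the same 1.6 log2. Tbl1x reads 8.03 to 8.25 in the double mutant against 3.38 to 4.14 elsewhere, the dimmer Tbl1xr1 probe set is raised in the double mutant, and Ncor1, Hdac3 and Gps2 overlap between double mutant and control.

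Tbl1xr1, the autosomal paralog on chromosome 3, was bright in every genotype, and its probe sets differed in how far they moved. The brighter one, which stands for the gene in the tests, read 8.76, 8.82 and 8.80 log2 in the double mutant, 8.49, 8.55 and 8.71 in the Ring1 mutant, 8.60, 8.59 and 8.59 in the Rnf2 mutant, and 8.67, 8.66 and 8.60 in the control. The double-mutant arrays lay above all others by a narrow margin. The difference from control was 0.15 ± 0.06 log2 (95% interval 0.01 to 0.29) and did not pass the test over all genes (limma, adjusted p = 0.1). Against the Ring1 mutant the same probe set rose by 0.21 ± 0.06 (limma, adjusted p = 0.0241) and against the Rnf2 mutant by 0.20 ± 0.06 (limma, adjusted p = 0.0328). In the single mutants it differed from control by -0.06 ± 0.06 (Ring1 mutant, limma adjusted p = 0.815) and -0.05 ± 0.06 (Rnf2 mutant, limma adjusted p = 0.951). Its order of means was double mutant, control, Rnf2 mutant, Ring1 mutant. The Ring1 mutants overlapped both the controls and the Rnf2 mutants, and the Rnf2 mutants lay below the controls by less than 0.01 log2. The call against the Ring1 mutant was lost without Ring1 mutant replicate 1 or 2 or double mutant replicate 2 or 3 (limma, adjusted p 0.0605 to 0.103), and that against the Rnf2 mutant without any Rnf2 mutant array or double mutant replicate 2 or 3 (limma, adjusted p 0.0721 to 0.0897). Both were lost with arrays centred on their medians.

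The dimmer Tbl1xr1 probe set rose clearly. It read 8.09, 8.17 and 8.11 log2 in the double mutant, 7.21, 7.33 and 7.25 in the Ring1 mutant, 7.47, 7.40 and 7.46 in the Rnf2 mutant, and 7.11, 7.41 and 7.36 in the control. All 3 double-mutant arrays were above the other 9. When each of the 23488 probe sets naming 1 gene was tested, it rose by 0.83 ± 0.08 against control (limma, adjusted p = 5.7e-06), which is 1.78-fold. Its difference from control was 0.15 ± 0.08 in Rnf2 mutants (limma, adjusted p = 0.796) and -0.03 ± 0.08 in Ring1 mutants (limma, adjusted p = 0.939). In that test 14.3% of probe sets were called higher in the double mutant. The dimmer minus the brighter probe set was -0.67 ± 0.02 log2 in the double mutant and -1.35 ± 0.18 in the control (SD, n = 3 each), a shift of 0.68 (two-sided exact permutation test, p = 0.1, the smallest that 3 arrays against 3 allow). In the Rnf2 mutant it was -1.15 ± 0.03, a shift of 0.20 from control with the same exact permutation p of 0.1, and in the Ring1 mutant -1.32 ± 0.13, a shift of 0.03 (two-sided exact permutation test, p = 0.7). This comparison of probe sets was chosen after their values were seen. Which stretch of the transcript each probe set reads was not analysed here, and the gene's change is thus given as both values, 0.15 and 0.83.

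The paralogs were then set against each other within each array. The Tbl1x change exceeded that of the brighter Tbl1xr1 probe set by 4.39 log2 in the double mutant, a description since Tbl1x was chosen there. In the Rnf2 mutant the excess was 0.45 (two-sided exact permutation test, p = 0.2, n = 3 each) and in the Ring1 mutant -0.01 (two-sided exact permutation test, p = 1, n = 3 each), and no design of this size can go below p = 0.1. These single-mutant values also use the control arrays that entered the choice of Tbl1x. With the mean of both Tbl1xr1 probe sets, the excess in the double mutant was 4.05.

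The scaffold, deacetylase and linker genes did not pass the test in the double mutant against control. Ncor1 read 6.81, 6.93 and 6.86 log2 in the double mutant, 6.85, 6.85 and 6.82 in the Ring1 mutant, 6.82, 6.82 and 6.96 in the Rnf2 mutant, and 6.86, 6.81 and 6.87 in the control. Hdac3 read 6.81, 6.83 and 6.88 in the double mutant, 6.74, 6.65 and 6.77 in the Ring1 mutant, 6.83, 6.95 and 6.83 in the Rnf2 mutant, and 6.86, 6.79 and 6.74 in the control. Gps2 read 6.25, 6.03 and 6.18 in the double mutant, 6.44, 6.26 and 6.39 in the Ring1 mutant, 6.33, 6.30 and 6.22 in the Rnf2 mutant, and 6.14, 6.04 and 6.26 in the control. For each of the 3 genes the double-mutant arrays overlapped the controls. The differences of the double mutant from control were 0.02 for Ncor1 (95% interval -0.11 to 0.15), 0.04 for Hdac3 (-0.09 to 0.18) and 0.01 for Gps2 (-0.17 to 0.18), none past the test (limma, adjusted p between 0.674 and 0.963). Their sign turned to -0.10, -0.08 and -0.12 when arrays were centred on their medians, which set the median of all genes to -0.16 against -0.04 in the deposited values.

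Among the probe sets used for the 4 partners, that of Gps2 had the largest differences from control in the single mutants. It lay above every control in each Ring1-mutant array, though 1 pair of arrays was almost level, and the mean difference of 0.22 ± 0.08 log2 did not pass (limma, adjusted p = 0.34). The Rnf2 mutant differed by 0.14 ± 0.08 (limma, adjusted p = 0.836). Its interaction, the difference that goes with Rnf2 loss in Ring1-null oocytes minus that in Ring1-intact oocytes, was -0.35 ± 0.11 and just missed the threshold (limma, adjusted p = 0.0512), and it passed under 6 of the alternatives that kept all arrays (limma, adjusted p 0.00451 to 0.0462). The interaction of Tbl1xr1 was 0.26 ± 0.09 (limma, adjusted p = 0.0661), which passed under 5 of those alternatives (limma, adjusted p 0.00162 to 0.0305). The interactions of Ncor1 and Hdac3 were 0.01 and 0.05. Of the 4 partners, 0 were called in the interaction, where 19% of all genes were, and 2 had an unadjusted p under 0.05 in limma.

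Counted by the all-gene test, 0 of the 4 partners of Tbl1x passed in the comparison of double mutant and control, where 32% of the 21655 genes were called, 14.4% higher and 17.5% lower. At an unadjusted p under 0.05 the count was 1, the brighter Tbl1xr1 probe set. The 0 rests on that probe set standing for Tbl1xr1, since the dimmer one passed, and the count was 1 with the mean of both, quantile normalization, centring on the brightest 25% of genes or a variance trend. In the Ring1 mutant 0 of the 5 genes were called against 0.771% of all genes, and in the Rnf2 mutant 0 of 5 against 0.139%, with 1 gene each at an unadjusted p under 0.05 (Gps2 and Tbl1x) in limma. Against the Ring1 mutant and the Rnf2 mutant, 1 of the 4 partners was called in the double mutant, Tbl1xr1 both times, where 31.6% and 30.3% of all genes were called, 15% and 13.9% of all as higher. Which partner was called depended on the scaling. Gps2 stood at -0.21 ± 0.08 against the Ring1 mutant (limma, adjusted p = 0.0654) and -0.13 ± 0.08 against the Rnf2 mutant (limma, adjusted p = 0.272). With arrays centred on their medians Tbl1xr1 was not called and Gps2 was called lower in both, at -0.34 (limma, adjusted p = 0.0023) and -0.26 (limma, adjusted p = 0.012). Its difference from the Ring1 mutant also passed with the filter at the 95th percentile of olfactory genes, quantile normalization and the replicate block (limma, adjusted p 0.0387 to 0.0477). Tbl1x, chosen for its rise, is left out of the next count. Arrays of the double mutant did not overlap the controls for 1 of the 4 partners (Tbl1xr1, by a narrow margin), against 43.1% of all genes. For the Ring1 mutant this held for 1 of all 5 genes (Gps2), against 16.6%, and for the Rnf2 mutant for 1 of 5 (Tbl1xr1), against 12.2%. The comparisons against control share the same 3 control arrays, which also entered the choice of Tbl1x. By the probe sets used, the 4 partners differed from control by 0.01 (Gps2) to 0.15 log2 (Tbl1xr1) in the double mutant, where the median over all genes was -0.04.

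**Figure D2:**
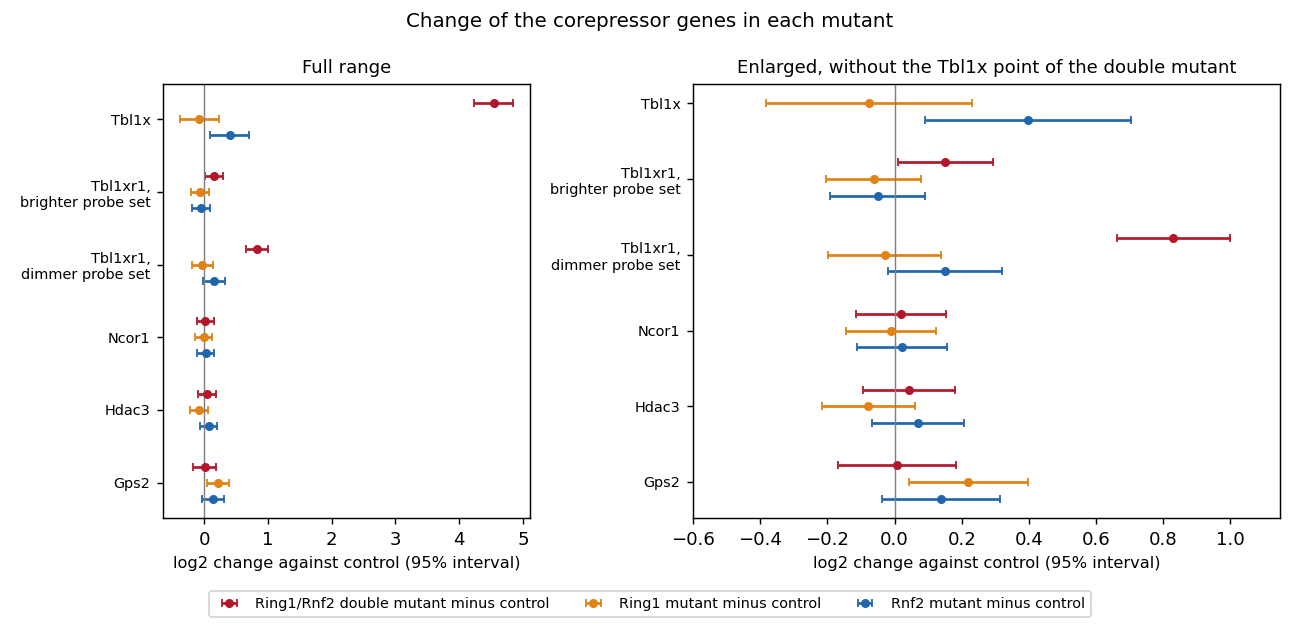
Change against control on the log2 scale (x axis) for each corepressor probe set (y axis) in the double, Ring1 and Rnf2 mutants, with bars for the 95% interval of the limma fit. The left panel shows the full range, where Tbl1x in the double mutant stands at 4.55, and the right panel leaves that point out, so that the dimmer Tbl1xr1 probe set at 0.83 and the intervals of Ncor1, Hdac3 and Gps2 around 0 can be read.

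The genes that work with the complex were read from a list of 15 associated subunits, recruiters and exchange factors. Of these, 7 rose and 2 fell in the double mutant against control, with a median of 0.29 log2 against -0.04 over all genes, of which 14.4% were called higher and 17.5% lower. In limma 0 were called in either single mutant, where 0 in the Ring1 mutant and 2 in the Rnf2 mutant had an unadjusted p under 0.05. Zbtb16, a zinc-finger repressor known as PLZF that recruits the complex, read 5.25, 5.56 and 5.32 log2 in the double mutant and 4.10, 4.03 and 3.91 in the control. It rose by 1.36 ± 0.09 (limma, adjusted p = 2.1e-07), with no overlap between the groups and with controls near the floor. Coro2a, a coronin-family partner of the complex, rose by 0.84 ± 0.08 (limma, adjusted p = 5.8e-06), and Hdac9, a class IIa deacetylase that binds the complex, by 0.89 ± 0.10 (limma, adjusted p = 2.9e-05). Bcl6, another zinc-finger repressor that recruits the complex, rose by 0.70 ± 0.10 (limma, adjusted p = 1.6e-04), with controls near the floor. The falls were in Siah2, a ubiquitin ligase that targets Ncor1 protein for degradation, which fell by 0.33, and in the histone demethylase gene Kdm4a, also by 0.33 (limma, adjusted p = 0.0014 and 0.0010). With arrays centred on their medians 6 rose and 2 fell, and with arrays centred on the 25% of genes of highest mean 9 rose and 2 fell.

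Nuclear receptors that bind the complex, and their heterodimer partners, went both ways. Of 25 tested, 8 rose and 3 fell in the double mutant against control, with a median of 0.10 log2, where 14.4% of all genes were called higher and 17.5% lower. Nr2f2, the orphan receptor COUP-TFII, read 5.30, 5.36 and 5.26 in the double mutant and 4.24, 4.20 and 4.09 in the control, a rise of 1.13 ± 0.16 (limma, adjusted p = 1.7e-04). The groups did not overlap. Rxra, the common heterodimer partner, rose by 0.41 ± 0.09 and Pparg, a fatty acid receptor, by 0.31 ± 0.06, while Nr1d1, the clock repressor Rev-erb alpha that acts through Ncor1 and Hdac3, fell by 0.46 ± 0.08 (limma, adjusted p at most 0.0027 for the 3). Median centring gave 4 rises and 5 falls for this list, and centring on the brightest 25% of genes gave 11 and 2.

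Coactivators, which replace the corepressor on liganded receptors, had 1 rise and 4 falls among 14 genes, and a median of -0.001 log2, beside the same 14.4% and 17.5% over all genes. The acetyltransferase gene Kat2b rose by 1.09 ± 0.11 from a level below the floor (limma, adjusted p = 1.2e-05), and the arginine methyltransferase gene Carm1 fell by 0.32 ± 0.07 (limma, adjusted p = 0.0047). Ncoa3 and Ncoa4, a steroid receptor coactivator and the ferritinophagy receptor, fell by 0.19 and 0.21, and neither call held after quantile normalization (limma, adjusted p = 0.188 and 0.134). Centring on the brightest 25% of genes gave 3 rises and 1 fall. Other deacetylase complexes (Sin3, NuRD and CoREST subunits with further deacetylases) had 5 rises and 5 falls among 25 genes, and a median of 0.07, both counts near the shares of 14.4% and 17.5% over all genes. Hdac6, the X-linked cytoplasmic tubulin deacetylase, read 8.18, 8.02 and 8.13 log2 in the double mutant and 7.07, 6.73 and 6.94 in the control, a rise of 1.20 ± 0.10 (limma, adjusted p = 2.1e-06). The CoREST gene Rcor2 rose by 0.59 ± 0.10, and the NuRD genes Gatad2a and Mta3 fell by 0.44 ± 0.06 and 0.41 ± 0.05 (limma, adjusted p at most 6.4e-04). Median centring gave this list 3 rises and 7 falls, and centring on the brightest 25% of genes 10 and 3. Of the genes named in this paragraph, Mta3 and Ncoa4 had 2 probe sets each, and the values are those of the brighter one only.

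**Figure D3:**
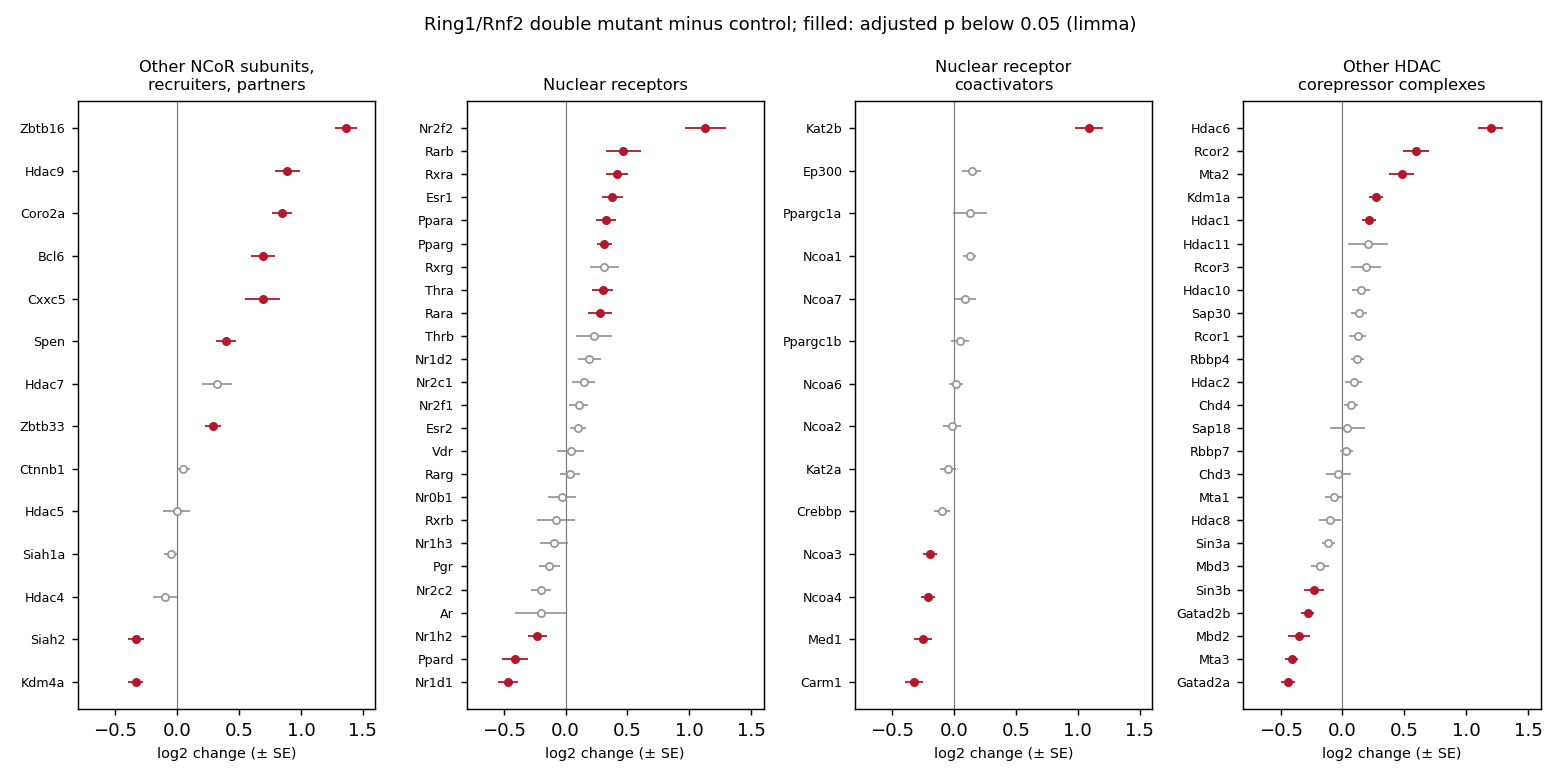
Log2 change of the double mutant minus control (x axis, bars are SE of the limma fit) for genes that work with or beside the corepressor (y axis), in 4 lists with 1 gene not shown; filled points passed an adjusted p of 0.05. Zbtb16 (1.36), Nr2f2 (1.13), Kat2b (1.09) and Hdac6 (1.20) are the highest points of their lists.

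The genes whose pattern was closest to that of Tbl1x were found by the Euclidean distance over the 12 arrays, after each gene's control mean had been subtracted. They were Plod2, a collagen lysyl hydroxylase (distance 0.54 log2), Ddah1, which degrades methylated arginines (0.77), the X-linked germline gene Xlr (0.96), the autophagy gene Gabarapl1 (0.99) and the adhesion molecule gene Amigo2 (1.02). Plod2 read 8.31, 8.24 and 8.08 log2 in the double mutant and 3.82, 3.77 and 3.43 in the control. All 5 read at most 4.14 log2 on every array of the 3 other genotypes. The likeness rests on the double mutant, in which the 5 rose by 4.34 to 4.64 log2. Promoter windows matched for 4 of the 5 varied, with 46 CG dinucleotides in that of Amigo2, 23 in that of Ddah1, 12 in that of Gabarapl1 and 7 in that of Xlr.

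The neighbours of Tbl1x on the X chromosome did not pass the test. Of 3 tested genes on each side, the protein kinase gene Prkx was the one well above the floor. It read 7.34, 7.41 and 7.65 log2 in the double mutant and 7.33, 7.52 and 7.22 in the control, a difference of 0.11 ± 0.12 (limma, adjusted p = 0.571) with overlapping groups. The other 5 (Magea7-ps, Cldn34b4, Gm5793, Cldn34-ps and Pbsn) had means between 2.17 and 3.05 log2, below the floor, and differed by -0.13 to 0.09. Across the X chromosome, 181 of 776 tested genes (23.3%) were higher and 93 (12%) lower in the double mutant, against 14.4% and 17.5% of all genes, and Tbl1x had the largest rise among those 776. The difference between the X chromosome and other chromosomes was not tested.

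**Figure D4:**
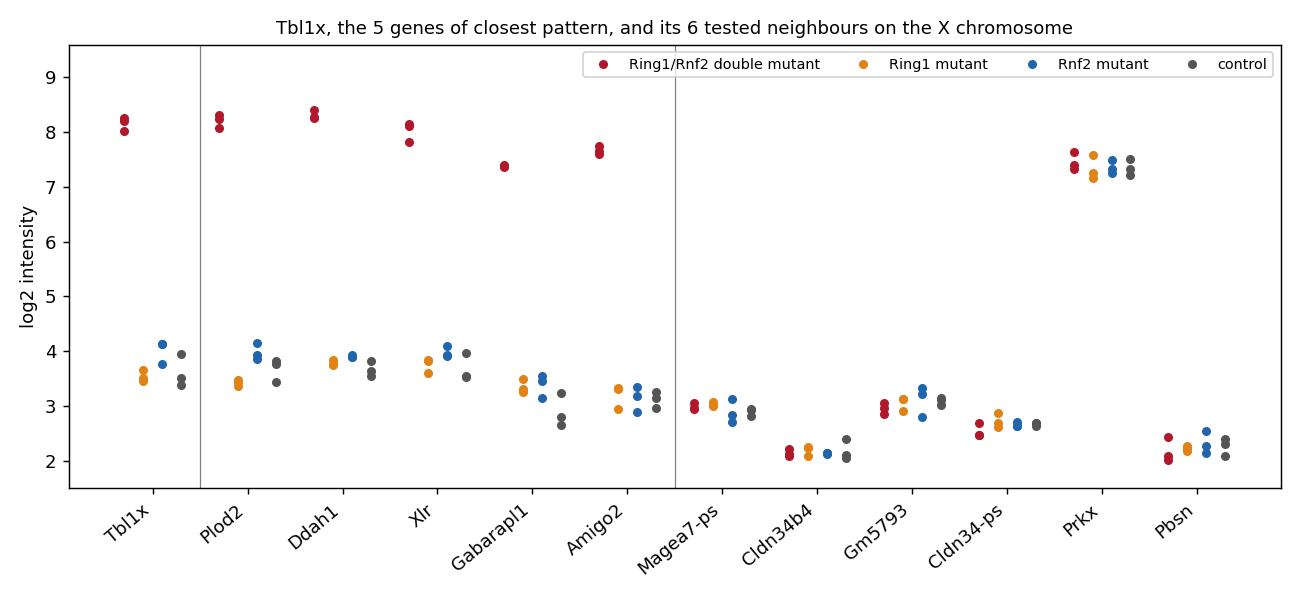
Log2 array intensity (y axis) on each of the 12 arrays for Tbl1x, the 5 genes of closest pattern and the 6 tested genes nearest to Tbl1x on the X chromosome (x axis), with points coloured by genotype. The double-mutant arrays stand apart for Tbl1x and the 5 similar genes. For Prkx, at 7.16 to 7.65, and the dim neighbours other than Magea7-ps the genotypes overlap. For Magea7-ps, below the floor, the Ring1-mutant arrays (lowest 2.9913) and, barely, the double-mutant arrays (lowest 2.9373) lie above the controls (highest 2.9371).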

How the data were processed

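Deposited log2 intensities of 34760 probe sets on 12 arrays were used as given. Array medians were 3.81 to 3.93 log2, near the floor, so they say little about the scale of bright genes. Counts of called genes moved with other scalings, as given below. R 2.10.0 and affy are the tools listed in the submitters' processing notes. Background correction, summarization and genome build: not given in the sources used here. No detection calls were used. The deposited annotation named 1 gene for 23488 probe sets, several for 1124 and none for 10117, and 31 were not listed in it; symbols were updated through a RefSeq table of GRCm38.p6. Where a gene had more than 1 probe set (1083 genes), its brightest by average was used. Genotype means were estimated jointly from the 12 arrays (limma 3.58.1, R 4.3.3, lmFit and eBayes), with Benjamini-Hochberg adjustment over all 21655 genes of a comparison and calls at an adjusted p below 0.05. The fit was also run on simulated data with independent noise and rises only. That setting is simpler than these data, so it does not show how reliable the calls are here. P-values measure the spread between pools of oocytes, since the sources used here do not say whether pools shared females, and precision is limited by 3 arrays a genotype. The members and gene lists were chosen with earlier results of these data known. Named genes were the members, up to 4 called genes per list with the smallest adjusted p (the 2 brightest where none was called), the 5 genes of closest pattern, 3 tested neighbours on each side, and Ring1 and Rnf2; Siah2 and Kdm4a were named after their values were seen. A listed gene is not reported here by name. Alternatives covered the probe set, filters on dim genes, scaling, the variance model, array weights, the replicate number as a block, the groups in the fit and leaving out each array.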

Additional observations from a re-analysis of the deposited data

Results flagged for a closer look

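Tbl1x had a log2 interaction of 4.22, the difference that goes with Rnf2 loss in Ring1-null oocytes (4.62) minus that in Ring1-intact oocytes (0.40). Results stand here where the interaction passed the limma threshold of an adjusted p below 0.05. For Tbl1x that pass is no support and the value is a description, since the gene was chosen for its rise in the double mutant. The dimmer Tbl1xr1 probe set had an interaction of 0.71 ± 0.11 (limma over 23488 probe sets, adjusted p = 7.3e-04), from a difference of 0.86 in Ring1-null and 0.15 in Ring1-intact oocytes, while the brighter one stood at 0.26 ± 0.09 and did not pass.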

How the results depend on the processing

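Tbl1x in the double mutant stayed at 4.43 to 4.71 log2 above control when single arrays were left out. The cause of the changes below was not tested, and 3 arrays a genotype and signal near background limit what can be seen of Tbl1x outside the double mutant. With arrays centred on their medians, Ncor1, Hdac3 and Gps2 stood at -0.10, -0.082 and -0.12 in the double mutant against control, Ncor1 and Hdac3 at -0.094 and -0.0034 against the Ring1 mutant, and their interactions at -0.12 and -0.074. Quantile normalization gave Ncor1 0.015 in the Ring1 mutant against control, and Ncor1 0.034 and Hdac3 0.0014 in the double mutant against the Rnf2 mutant; centring on the brightest 25% of genes gave 0.019, 0.086 and 0.060. The mean of both probe sets gave Tbl1xr1 0.050 in the Rnf2 mutant against control, 0.49 in the double mutant against control (limma, adjusted p = 4.8e-05), and an excess of Tbl1x over it of 4.05.

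Partners of Tbl1x called in the double mutant against control numbered 1 (Tbl1xr1) with the mean of probe sets, quantile normalization, centring on the brightest genes or a variance trend. Against the Ring1 mutant they numbered 2 with the filter at the 95th percentile of olfactory genes, quantile normalization, centring on the brightest genes or the replicate block, and 0 with only those groups in the fit. In the interaction they numbered 1 with the mean of probe sets, the filter at the median of olfactory genes, either centring or the block, and 2 with the stricter filter, quantile normalization or the trend. The replicate numbers did not pair the arrays: same-numbered arrays of different genotypes had deviations correlated at -0.161 to 0.206, over 0.1 in 4 of 18 pairs, and 4 of 12 arrays were closest to their own number. With the replicate block the partners called in the double mutant against the Rnf2 mutant numbered 0, and genes called in the Rnf2 mutant against control 18. Genes called in the Ring1 mutant against control were 167, and 302 with the trend and 47 with only those groups; in the Rnf2 mutant against control they were 30, and 52 and 6. In the double mutant against control, 3122 higher and 3798 lower genes became 2251 and 7435 with median centring, 4509 and 2459 with centring on the brightest genes, and 3465 and 3403 with quantile normalization.

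Leaving out each array gave Ncor1 a range of -0.013 to 0.050 in the double mutant against control, -0.0032 to 0.060 against the Ring1 mutant, -0.035 to 0.045 against the Rnf2 mutant, -0.029 to 0.0032 in the Ring1 mutant and -0.025 to 0.046 in the Rnf2 mutant against control, and -0.025 to 0.055 in the interaction. Gps2 ranged from -0.046 to 0.068 in the double mutant against control, Hdac3 from -0.048 to 0.014 against the Rnf2 mutant, and Tbl1x from -0.19 to 0.090 in the Ring1 mutant against control. Genes called ranged from 73 to 172 in the Ring1 mutant and from 10 to 33 in the Rnf2 mutant, lowest without replicate 1 and replicate 2 of those mutants. Partners called ranged from 0 to 2 against the Ring1 mutant, 0 to 1 against the Rnf2 mutant and 0 to 1 in the interaction.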
